A study of Mus musculus with 10 samples.

Results

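Mouse blood holds CD115hi cells that stain for neither Ly6C nor CD43 (DN blood cells), beside the Ly6C+ monocytes and the CD43+ monocytes. DN blood cells were set against Ly6C+ monocytes here, gene by gene, in 2 separate sorts that are called dataset 1 and dataset 2. A cell entered through its hashtag, a DNA-barcoded antibody that marks the sorted population, when exactly 1 hashtag was called and it had at least 1000 UMIs (unique molecular identifiers, the counted RNA molecules), at least 500 genes and at most 10% mitochondrial UMIs. Of the 15348 cells of the series that met these conditions, out of 24989 barcodes, 8874 were DN blood cells or Ly6C+ monocytes. These were 2118 DN blood cells and 919 Ly6C+ monocytes in dataset 1, and 4971 and 866 in dataset 2.

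Ly6C+ monocytes leave the bone marrow through the chemokine receptor CCR2, enter inflamed tissue, and are the source of many tissue macrophages. Cells of the dendritic lineage take up antigen, load it on MHC class II with the help of H2-DM and the invariant chain, and present it to CD4+ T cells. Their development uses the growth factor receptor FLT3 and transcription factors such as ZBTB46 and IRF4, and the type 2 branch carries lectins of the CD209 and CLEC10A kinds.

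All animals were female C57BL/6Rj mice. Blood came from 20 mice in dataset 1 and 18 in dataset 2, all of which had received clodronate liposomes intravenously 9 days earlier, a treatment that depletes phagocytes and that the labels give as a way to have more CD115hi Ly6C-CD43- cells. No blood population of an untreated mouse was measured here. The DN gate of dataset 1 was CD115hi Ly6C-CD43-CD11b+SIRPa+, and all populations were tagged after the sort and shared 1 library. In dataset 2 cells were tagged before the sort, DN blood cells came from a CCR2+ and a CCR2- gate under 1 hashtag, and DN blood cells and Ly6C+ monocytes lay in different libraries, so that population and library cannot be told apart there. Each population is therefore 1 pool of mice per dataset, and n = 2 pools on each side throughout.

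The summed gene counts of the pools came to 9647662 (DN, dataset 1), 28778760 (DN, dataset 2), 4081931 (Ly6C+, dataset 1) and 5197974 UMIs (Ly6C+, dataset 2), with medians of 4410 to 5920 UMIs per cell. Between the cells used in dataset 1 and in dataset 2, 13 barcodes were shared. The DN pool of dataset 1 stood apart from that of dataset 2 in carrying more RNA of Ly6C-high monocyte genes: Ly6c2, the main transcript behind Ly6C staining, was at 116 CPM (counts per 1000000 UMIs) against 10.98, where the Ly6C+ pools had 1306 and 1059. At least 1 Ly6c2 UMI was seen in 510 of 2118 DN cells of dataset 1 (24.1%) and in 175 of 4971 of dataset 2 (3.5%). Ly6c2 missed the threshold (log2 fold change -5.03, SE 0.998, adjusted p = 0.0521 in edgeR). Csf1r, which encodes the sort marker CD115, was detected in all pools (382 and 188 CPM in DN, 610 and 516 in Ly6C+), and Spn, the gene of CD43, had 105 and 61.2 CPM in DN against 692 and 688 in CD43+ monocytes. The pan-leukocyte gene Ptprc was at 1134 and 984 CPM in DN and 1208 and 1016 in Ly6C+.

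The threshold was a Benjamini-Hochberg adjusted p under 0.05 in edgeR's quasi-likelihood test. Counts of members in the gene lists below are to be read beside the shares over all genes tested. Of 11474 genes tested, 924 were higher in DN blood cells and 948 were lower, which is 8.05% and 8.26% of the genes. Among them 559 and 423 differed by more than 1 on the log2 scale, and 236 and 133 by more than 2. The direction was the same in both datasets for 923 of the 924 and for all 948, the exception being S100a9. Every p rests on 2 pools per population and on a spread shared by the 8 sums of 4 populations in the fit (3 residual degrees of freedom). That spread is what remains between the 8 sums once differences between populations and between datasets are removed. A sum cannot tell fewer cells expressing a gene from less RNA per cell. The counts depended on single pools: without the Ly6C+ pool of dataset 2 there were 214 higher and 169 lower, without the DN pool of dataset 2 461 and 456, and without the Ly6C+ pool of dataset 1 519 and 654, whereas without the DN pool of dataset 1 there were 1148 and 1180.

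**Figure D1:**
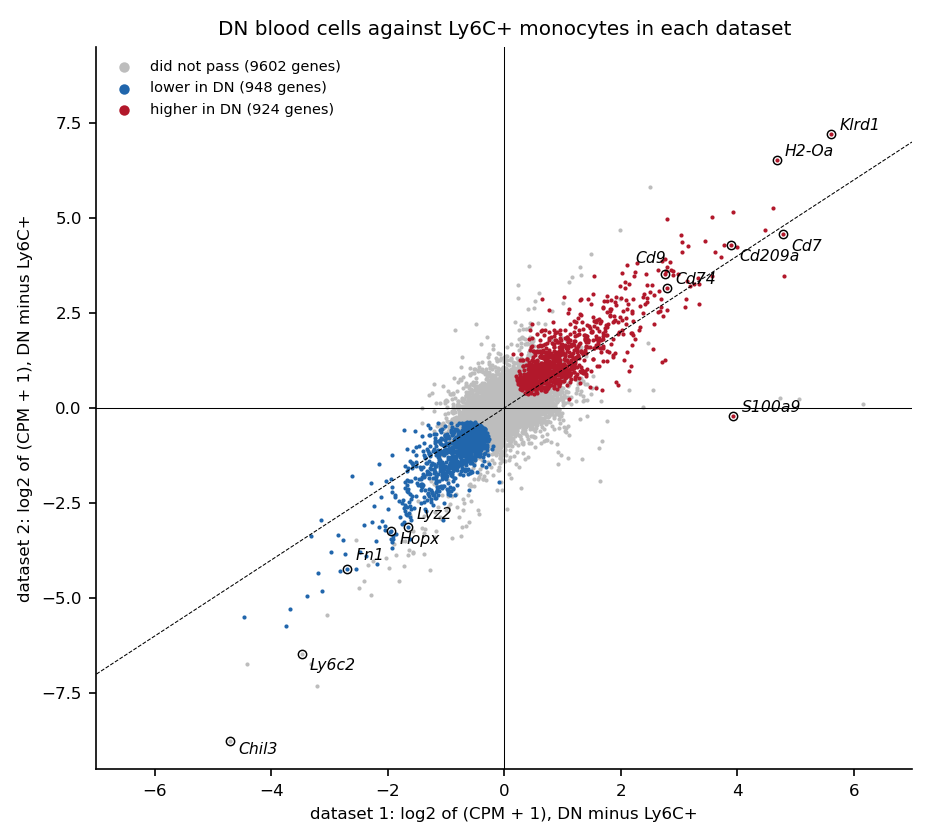
Difference between DN blood cells and Ly6C+ monocytes in each dataset, as log2 of (CPM + 1) in the DN pool minus that in the Ly6C+ pool, with dataset 1 on the x axis and dataset 2 on the y axis; each point is 1 of the 11474 genes tested and the dashed line marks equal differences. The 924 genes higher in DN (red) lie in the upper right and the 948 lower genes (blue) in the lower left, S100a9 is the exception in the lower right, and 7239 of all genes lie farther from 0 in dataset 2.

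C-type lectins that mark type 2 dendritic cells were among the largest differences. Cd209a, a DC-SIGN homologue that binds sugars of microbes (chr8:3743397-3748984, minus strand, GRCm38), reached 511 and 747 CPM in the DN pools of datasets 1 and 2, against 33.6 and 36.9 in the Ly6C+ pools. Both DN pools were far above both Ly6C+ pools (log2 fold change 4.16, SE 0.254, adjusted p = 5.12e-05). Mgl2 and Clec10a, neighbouring genes on chromosome 11 for lectins that bind galactose-type sugars, were higher by 4.90 (SE 0.364, adjusted p = 0.000458) and 3.29 (SE 0.198, adjusted p = 1.64e-05). Mgl2 stood at 114 and 227 CPM in DN and at 4.17 and 7.89 in Ly6C+, and Clec10a at 436 and 597 against 57.6 and 48.5. Cd209c, at 7.77 and 9.10 CPM in DN, had no UMI in either Ly6C+ pool, which makes it at least 10.6-fold higher in dataset 1 and at least 15.8-fold in dataset 2 when a floor of 3 counts per library stands for 0.

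Of 30 tested dendritic cell surface and function genes, 17 were higher in DN and 0 lower, with a median log2 fold change of 2.08 against 0.02 over all genes tested, of which 8.05% were higher and 8.26% lower. The number higher was 13 to 19 with any 1 of the 4 pools left out. Cd209d, another CD209 lectin, was at 61.1 and 42.5 CPM in DN and 1.23 and 2.89 in Ly6C+ (log2 fold change 4.56, SE 0.513, adjusted p = 0.00274). Clec9a, a receptor for exposed actin of dead cells and best known from type 1 dendritic cells, was at 19.4 and 17.1 CPM in DN and 1.23 and 0.962 in Ly6C+ (4.08, SE 0.35, adjusted p = 0.000104). Members that did not pass included Ccr7, Kit and Fscn1.

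The related lectins of a list named after the Dectin and DCIR clusters on chromosome 6 were split. Its member Clec5a lies outside these clusters, at chr6:40574894-40585821, whereas Clec4a3 is at chr6:122952515-122969875. Among 16 tested, 3 were higher and 4 lower in DN, with a median of -0.57. Clec4b1 stood at 221 and 345 CPM in DN against 47.3 and 46.2 (log2 fold change 2.61, SE 0.221, adjusted p = 0.000254). On the lower side, Clec5a, an activating receptor of the myeloid lineage, was at 12.7 and 4.69 CPM in DN against 34.5 and 28.1 (-1.99, SE 0.295, adjusted p = 0.00465), and Clec4a3, an inhibitory DCIR, at 270 and 214 against 421 and 411 (-0.77, SE 0.148, adjusted p = 0.0063). The number lower was 0 without the Ly6C+ pool of dataset 2 and 1 without the DN pool of dataset 2. Without the Ly6C+ pool of dataset 2 the adjusted p of Clec5a and Clec4a3 was 0.0547 and 0.0907, and that of Clec4a3 was 0.0722 without the DN pool of dataset 2.

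Receptors first described on natural killer cells had the largest median difference of the lists by role, 3.13. Klrd1 (CD94, which pairs with NKG2 chains to sense nonclassical MHC class I; chr6:129591782-129598775, plus strand, GRCm38) was at 107 and 344 CPM in DN and at 1.23 and 1.35 in Ly6C+ (log2 fold change 7.42, SE 0.372, adjusted p = 2.82e-05). The DN pools differed from each other as well, dataset 2 being the higher. Klrk1 (NKG2D, a receptor for stress-induced ligands) was at 96.3 and 128 CPM in DN and 19.1 and 8.27 in Ly6C+ (3.13, SE 0.354, adjusted p = 0.00279). Klrd1 and Klrk1 passed in each of the 4 fits that left out a pool.

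Of the 21 tested genes of this list 12 were higher in DN, 2 were lower and 7 did not pass, with a median of 3.13, and 8 to 12 were higher when any 1 pool was left out. Of the 12, 7 were Klr genes of the natural killer gene complex between 128813706 and 129876672 on chromosome 6, whose near-identical members can share reads. Klra17, an inhibitory Ly49-type receptor (chosen after its values were seen), was at 9.22 and 27.0 CPM in DN and 0.245 and 0.192 in Ly6C+. Klrb1b and Klri1 had no UMI in the Ly6C+ pools, so that Klrb1b was at least 7.90-fold and 24.3-fold higher in datasets 1 and 2 and Klri1 at least 2.54-fold and 12.04-fold. In the fits without 1 Ly6C+ pool the adjusted p of Klrb1b was 0.0545 and 0.161.

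Other surface receptors of the same list moved with them. Cd7, an immunoglobulin-family protein of T and NK cells, was at 87.2 and 55.1 CPM in DN and 2.21 and 1.35 in Ly6C+ (log2 fold change 5.35, SE 0.252, adjusted p = 4.8e-06). Slamf7, a self-ligand receptor of many leukocytes, stood at 346 and 413 CPM against 45.6 and 35.2 (3.27, SE 0.206, adjusted p = 2.5e-05). Cd226 (DNAM-1, an adhesion and activating receptor) was low but apart, at 7.15 and 9.28 CPM against 0.49 and 0.385 (4.25, SE 0.448, adjusted p = 0.000432). Slamf9 was at 54.1 and 133 CPM against 5.63 and 6.73 (3.89, SE 0.582, adjusted p = 0.0181), with an adjusted p of 0.113 and 0.234 without the Ly6C+ pool of dataset 1 or of dataset 2.

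The signalling adaptors that many of these receptors need went the other way. Tyrobp (DAP12) was at 3508 and 2730 CPM in DN and 4955 and 4424 in Ly6C+ (log2 fold change -0.58, SE 0.147, adjusted p = 0.0225), and Hcst (DAP10) at 59.7 and 50.3 against 90.2 and 71.4 (-0.53, SE 0.123, adjusted p = 0.0149). Both adaptors stayed detected in DN. Neither call held without the DN pool of dataset 2 or without either Ly6C+ pool (adjusted p from 0.062 to 0.238). The markers of NK cells proper were near 0 in the DN pools: their summed level was 4.87 and 7.92 CPM, Ncr1, Gzma, Gzmb, Prf1 and Eomes were among those without a UMI there, and Klre1, a Klr gene, was the 1 marker of 2 tested that was higher (adjusted p = 0.00228, and 0.0999 without the Ly6C+ pool of dataset 2).

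The MHC class II machinery was higher in DN, and 3 of its promoters are printed because the DNA motif that class II promoters share, the Y box, can be read in them. The stretches are RefSeq sequence (GRCm38.p6), 5′ to 3′ along the gene, and the capitals mark the Y box core GATTGG, or its reverse complement CCAATC. They are H2-Aa (chr17:34287825-34287914, minus strand), H2-Eb1 (chr17:34305777-34305866, plus strand) and H2-Oa (chr17:34092289-34092378, plus strand).
H2-Aa: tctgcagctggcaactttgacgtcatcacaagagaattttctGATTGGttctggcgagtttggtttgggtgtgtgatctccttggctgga
H2-Eb1: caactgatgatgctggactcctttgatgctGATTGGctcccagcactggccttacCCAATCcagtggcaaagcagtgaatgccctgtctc
H2-Oa: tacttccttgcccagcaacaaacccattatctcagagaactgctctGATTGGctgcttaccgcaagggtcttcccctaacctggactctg

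Read on both strands over 300 bases around the RefSeq gene start, GATTGG was found for 6 of the 6 higher class II genes that had a promoter in the RefSeq table (9 were higher), for 2 of 3 that did not pass, and not for Ctss, against 18.2% of 27025 genes. The longer form CTGATTGG, which contains that core, was found for 3 of the 6 against 4.70% of genes. A match describes the letters only.

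Of 13 class II presentation genes tested, 9 were higher, 1 was lower and 3 did not pass, with a median log2 fold change of 2.75. H2-Aa, the alpha chain of the I-A molecule, was at 6854 and 9983 CPM in DN and 867 and 862 in Ly6C+ (3.32, SE 0.452, adjusted p = 0.0095). H2-Ab1 and H2-Eb1, the beta chains of I-A and I-E, were higher by 3.33 and 3.81 (adjusted p = 0.0137 and 0.0143). With only the 6 blood sums in the fit, without the LysoDC sums, these 3 chains missed the threshold and the list's 9 became 6. H2-Eb1 also missed it with the 4 compared sums alone. All 3 chains passed with either DN pool left out and missed the threshold without either Ly6C+ pool (adjusted p from 0.0728 to 0.202). The list's count was then 5 without the Ly6C+ pool of dataset 1 and 3 without that of dataset 2.

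Cd74, the invariant chain that guards the peptide groove, was at 27030 and 26580 CPM in DN against 3900 and 2958 (log2 fold change 3.02, SE 0.38, adjusted p = 0.00443, and 0.0808 without the Ly6C+ pool of dataset 2). Ciita, the transactivator that switches class II genes on, was at 340 and 487 CPM against 63.9 and 60.2 (2.75, SE 0.181, adjusted p = 2.26e-05), and passed in every fit without a pool. Both DN pools lay above both Ly6C+ pools for each of these genes, as they did for 2967 of the 11474 genes tested.

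The peptide editors differed in size. H2-DMa, a chain of the editor H2-DM that exchanges peptides, was at 846 and 1069 CPM in DN against 391 and 385 (log2 fold change 1.33, SE 0.188, adjusted p = 0.0013), and its partner H2-DMb1 at 958 and 1001 against 224 and 192 (2.27, SE 0.296, adjusted p = 0.00329, and 0.0687 without the Ly6C+ pool of dataset 2). H2-Oa, a chain of the H2-DM inhibitor H2-O best known from B cells, was at 81.0 and 161 CPM against 2.21 and 0.769 (6.41, SE 0.544, adjusted p = 0.00149). Its partner H2-Ob was higher by 5.07 (SE 0.767, adjusted p = 0.0193), which was lost without either Ly6C+ pool (adjusted p = 0.107 and 0.246). Ctss, the protease that trims the invariant chain, was the lower member, at 1555 and 1100 CPM against 2113 and 1695 (-0.51, adjusted p = 0.0344), and missed the threshold with any 1 pool left out. Of 20 class I presentation genes 0 were higher and 2 lower, with a median of 0.00, and the 2 became 0 without the DN or the Ly6C+ pool of dataset 2.

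Transcription factors and receptors of the dendritic lineage were mostly higher or did not pass. Among 28 tested, 13 were higher, 2 lower and 13 did not pass (median 0.49), and 8 to 11 were higher with any 1 pool left out, the smallest number being that without the Ly6C+ pool of dataset 2. Zbtb46, a factor of conventional dendritic cells, was at 18.8 and 35.9 CPM in DN and 0.245 and 0.962 in Ly6C+ (log2 fold change 5.41, SE 0.534, adjusted p = 0.000511). Flt3, the growth factor receptor, was at 50.9 and 79.0 CPM against 11.02 and 12.1 (2.5, SE 0.256, adjusted p = 0.000432).

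Regulators known from plasmacytoid and B lineage cells were among those higher. Bcl11a was at 126 and 173 CPM in DN against 35.0 and 30.6 (log2 fold change 2.19, SE 0.219, adjusted p = 0.000432), and Spib, an ETS factor, at 15.9 and 13.6 against 1.47 and 0.192 (4.26, SE 0.462, adjusted p = 0.000383). Rbpj, the nuclear partner of Notch receptors, was at 226 and 233 CPM against 100 and 89.3 (1.30, SE 0.138, adjusted p = 0.000321), with the DN pools close together. The 2 lower members were Irf8, a factor of monocytes and type 1 dendritic cells (140 and 48.5 CPM against 335 and 272, -1.78, adjusted p = 0.0416), and Nfil3 (12.02 and 3.16 against 39.0 and 24.1, -2.23, adjusted p = 0.0275). Both calls were lost without either Ly6C+ pool (adjusted p from 0.142 to 0.318). Tcf4, Klf4 and Zeb2 were among those that did not pass.

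Further genes with large differences belong to several families. Siglecg, an inhibitory sialic acid receptor best known from B cells, was at 62.6 and 68.8 CPM in DN and 3.19 and 0.962 in Ly6C+ (log2 fold change 5.10, SE 0.33, adjusted p = 3.34e-05). Kmo, the enzyme kynurenine monooxygenase of tryptophan breakdown, was at 61.4 and 93.2 CPM against 9.80 and 9.04 (3.05, SE 0.212, adjusted p = 2.68e-05). Cd9, a tetraspanin, was at 52.2 and 145 CPM against 6.86 and 11.5 (3.38, SE 0.574, adjusted p = 0.0294). Its call was lost without either Ly6C+ pool. CD43+ monocytes had more Cd9 than either DN pool, at 207 and 210 CPM.

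Scavenger receptors went both ways, 4 of 20 being higher and 3 lower with a median of -0.36. Cd163, the haemoglobin-haptoglobin receptor, was at 28.5 and 39.0 CPM in DN and 1.23 and 1.54 in Ly6C+ (log2 fold change 4.63, SE 0.298, adjusted p = 2.06e-05). Mrc1, the mannose receptor CD206, was at 120 and 78.4 CPM against 23.5 and 18.1 (2.25, SE 0.233, adjusted p = 0.000432). Both genes are best known from tissue macrophages, and both passed in each fit without a pool. The number lower in the list was 10 without the DN pool of dataset 1 and 0 without the Ly6C+ pool of dataset 2.

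**Figure D2:**
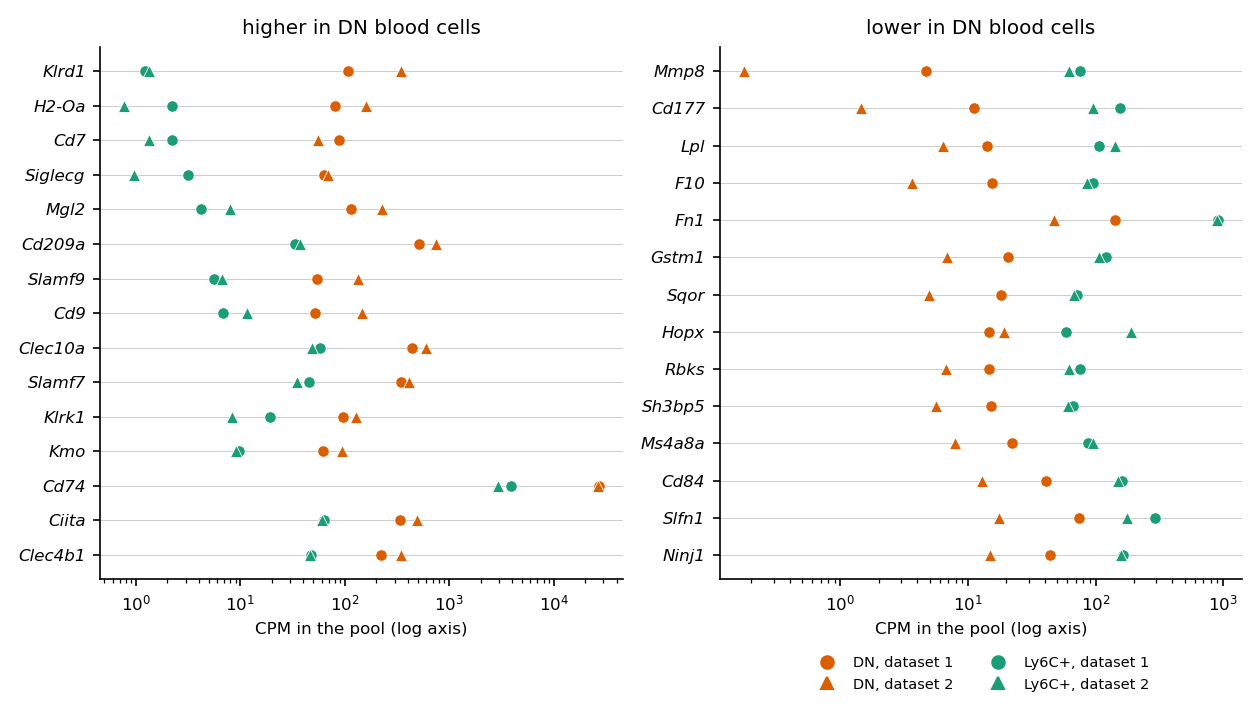
CPM (log axis) of the 15 genes with the largest rise and 14 of the 15 with the largest fall in DN blood cells, among genes past the threshold whose higher population had 50 CPM or more in each dataset; orange points are DN pools, green points Ly6C+ pools, circles dataset 1 and triangles dataset 2. For each gene shown the orange and green points do not overlap. Over all 11474 genes tested, both DN pools lay above both Ly6C+ pools for 2967 and below both for 2786. For the lower genes other than Hopx the DN pool of dataset 2 lies left of that of dataset 1.

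Among the genes lower in DN blood cells were those that define Ly6C+ monocytes. Of 30 tested Ly6C-high monocyte genes, 17 were lower, 1 was higher and 12 did not pass, with a median log2 fold change of -2.26 (8.26% of all genes tested were lower). The 17 became 6 without the Ly6C+ pool of dataset 2, and 16 to 23 with any other pool left out. Fn1, the matrix protein fibronectin (chr1:71585520-71653200, minus strand), was at 141 and 47.1 CPM in DN against 915 and 898 in Ly6C+ (log2 fold change -3.48, SE 0.597, adjusted p = 0.0316), and missed the threshold without the DN or the Ly6C+ pool of dataset 2 (adjusted p = 0.138 and 0.11).

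Other members of the list had larger differences. Mmp8, a collagenase, was at 4.66 and 0.174 CPM in DN and 74.96 and 61.6 in Ly6C+ (log2 fold change -5.50, SE 0.98, adjusted p = 0.0395). Cd177, a surface partner of PECAM-1, was at 11.1 and 1.46 CPM against 154 and 95.2 (-4.76, SE 0.667, adjusted p = 0.019, and 0.0525 without the Ly6C+ pool of dataset 2). Thbs1, thrombospondin 1, was nearly absent in DN (0.207 and 0 CPM against 11.02 and 9.23, adjusted p = 0.000383). Chil3, a chitinase-like protein abundant in these monocytes, was at 48.0 and 1.29 CPM in DN and 1274 and 999.2 in Ly6C+. The DN pools lay far apart, and it did not pass (-6.47, SE 1.68, adjusted p = 0.107).

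Lyz2, which encodes lysozyme M, had a similar spread. It stood at 13860 and 4281 CPM in DN and 43580 and 37730 in Ly6C+ (log2 fold change -2.29, SE 0.403, adjusted p = 0.0157, and 0.155 without the Ly6C+ pool of dataset 2). When DN cells with an Ly6c2 UMI were left out, an alternative chosen after seeing the data, 20 of the 30 genes were lower. The 1 member that was higher, S100a9, had its UMIs in few cells: of its 210 UMIs in the DN pool of dataset 1, 152 were in 1 cell and all were in 5 cells, and the DN pool of dataset 2 had 1 UMI.

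The other large falls included secreted and metabolic proteins. Lpl, lipoprotein lipase, was at 14.2 and 6.32 CPM in DN and 107 and 143 in Ly6C+ (log2 fold change -3.66, SE 0.539, adjusted p = 0.0187). The coagulation factors F10 and F5 were lower, with log2 fold changes of -3.48 (adjusted p = 0.0398) and -4.52 (adjusted p = 0.000367), with F10 at 15.6 and 3.65 CPM against 95.3 and 86.4. Gstm1, a glutathione transferase, was at 20.7 and 6.81 CPM against 120.5 and 106 (-3.16, SE 0.561, adjusted p = 0.0344), and Sqor, which oxidises sulfide, at 18.0 and 4.97 against 71.5 and 68.3 (-2.81, adjusted p = 0.0276). The calls of Lpl, F10, Gstm1 and Sqor were lost without either Ly6C+ pool (adjusted p from 0.0683 to 0.244).

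The remaining large falls differed in how far they depended on 1 pool. Rbks, ribokinase, was at 14.7 and 6.74 CPM in DN and 75.2 and 61.4 in Ly6C+ (log2 fold change -2.75, SE 0.246, adjusted p = 0.000247), and Sh3bp5, a regulator of JNK signalling and of the trafficking protein RAB11, at 15.2 and 5.63 against 66.2 and 60.6 (-2.74, SE 0.311, adjusted p = 0.00208). Both passed in each fit without a pool. Hopx, a homeodomain protein that does not bind DNA, was at 14.6 and 19.1 CPM in DN while its Ly6C+ pools differed, at 59.0 and 190 CPM (-2.77, SE 0.439, adjusted p = 0.018), and it missed the threshold without either DN pool (adjusted p = 0.0938 and 0.239). Cd84, a SLAM family receptor, Slfn1, a schlafen protein, and Ninj1, which ruptures the membrane of dying cells, were lower, with log2 fold changes of -2.65, -2.60 and -2.59 (adjusted p = 0.0439, 0.0388 and 0.0249), which was lost without either Ly6C+ pool (adjusted p from 0.054 to 0.273). Ms4a8a, a membrane protein of the CD20 family, was lower, with a log2 fold change of -2.74 (SE 0.441, adjusted p = 0.0174, and 0.0626 without the Ly6C+ pool of dataset 2).

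Interferon-stimulated genes were lower in DN or did not pass, and stretches of 3 of their promoters are printed because the element through which interferon acts can be read in them. The capitals mark GAAANNGAAA, the core of the interferon-stimulated response element on either strand. They are RefSeq sequence (GRCm38.p6), 5′ to 3′ along the gene, of Isg15 (chr4:156200835-156200924, minus strand), Ifit1 (chr19:34640764-34640853, plus strand) and Rsad2 (chr12:26456523-26456612, minus strand).
Isg15: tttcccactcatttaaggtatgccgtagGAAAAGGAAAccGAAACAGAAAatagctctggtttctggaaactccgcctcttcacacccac
Ifit1: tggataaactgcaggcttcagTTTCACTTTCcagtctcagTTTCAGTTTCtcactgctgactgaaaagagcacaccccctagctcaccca
Rsad2: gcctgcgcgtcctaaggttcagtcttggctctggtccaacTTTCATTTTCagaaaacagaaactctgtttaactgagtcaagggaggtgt
Isg15 and Ifit1 have 2 matches each in these 90 bases and Rsad2 has 1. On both strands the core was found for 9 of 16 lower genes with a promoter in the table and for 9 of 13 that did not pass, against 3.99% of 27025 genes, so that it did not separate the lower genes from the others of the list.

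Of 37 interferon-stimulated genes tested, 20 were lower, 0 were higher and 17 did not pass, with a median log2 fold change of -0.64. Isg15, a ubiquitin-like modifier, was at 112 and 94.7 CPM in DN and 258 and 172 in Ly6C+ (-1.01, SE 0.137, adjusted p = 0.00109). Ifit1, which binds foreign RNA caps, was at 14.4 and 16.4 CPM against 39.4 and 36.9 (-1.28, SE 0.174, adjusted p = 0.00108). Both DN pools lay below both Ly6C+ pools for each of these genes, as they did for 2786 of the 11474 genes tested.

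Zbp1, a sensor of Z-form nucleic acid, was at 77.6 and 58.7 CPM in DN and 167 and 130 in Ly6C+ (log2 fold change -1.11, SE 0.136, adjusted p = 0.000651), and Isg20, an exonuclease, at 18.4 and 19.1 against 42.6 and 39.2 (-1.10, SE 0.149, adjusted p = 0.00104). These 4 genes passed in each fit without a pool. Rsad2 (viperin) was at 31.8 and 17.9 CPM against 74.5 and 51.2 (-1.35, SE 0.222, adjusted p = 0.00396, and 0.0735 without the Ly6C+ pool of dataset 2). Unlike most lists, this one was no farther from 0 in dataset 2 than in dataset 1: the median log2 ratio was -0.80 in dataset 1 and -0.54 in dataset 2. The number lower fell to 8 without the Ly6C+ pool of dataset 1 and 10 without that of dataset 2, and was 17 and 20 without a DN pool.

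Innate sensors and the microbicidal and lysosomal equipment were lower in part. Of 28 Toll-like and other pattern receptors, 10 were lower and 1 higher (median -0.64), with 4 to 14 lower when a pool was left out, 4 being without the Ly6C+ pool of dataset 2. Naip2, a sensor of bacterial secretion system proteins, was at 40.0 and 24.2 CPM in DN against 74.5 and 66.4 (log2 fold change -1.16, SE 0.165, adjusted p = 0.00138). Ly96 (MD-2, the lipopolysaccharide-binding partner of TLR4) was at 14.2 and 11.02 CPM against 33.3 and 60.8 (-1.90, SE 0.265, adjusted p = 0.00267).

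Among 18 phagocyte oxidase and granule genes, 6 were lower and 0 higher (median -1.18), with 2 to 10 lower when a pool was left out. Ncf4, the p40phox subunit of the NADPH oxidase, was at 133 and 110 CPM in DN and 288 and 301.7 in Ly6C+ (log2 fold change -1.27, SE 0.162, adjusted p = 0.000812), and its catalytic subunit Cybb at 802 and 592 against 1469 and 1541 (-1.09, SE 0.208, adjusted p = 0.00688, and 0.0994 without the Ly6C+ pool of dataset 2). Prdx5, a peroxiredoxin that removes peroxides, was at 627 and 260 CPM against 1912 and 1647 (-2.09, SE 0.245, adjusted p = 0.000921). Of 37 lysosome genes 14 were lower and 0 higher (median -0.35), which became 3 without the Ly6C+ pool of dataset 2, 8 without that of dataset 1 and 7 without the DN pool of dataset 2. Lamp2, a structural membrane protein of lysosomes, was at 114 and 90.3 CPM against 189 and 234 (-1.03, SE 0.161, adjusted p = 0.00225), and Npc2, a cholesterol carrier in their lumen, at 1058 and 685 against 1829 and 1307 (-0.84, SE 0.141, adjusted p = 0.00322).

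Receptors for growth factors, chemokines and antibodies changed in single members. Ccr2, the receptor for monocyte egress, was at 885 and 683 CPM in DN and 1342 and 1241 in Ly6C+ (log2 fold change -0.71, SE 0.179, adjusted p = 0.0216), and Csf1r was lower, with a log2 fold change of -1.01 (SE 0.234, adjusted p = 0.0195). Both missed the threshold without the DN pool of dataset 2 or either Ly6C+ pool (adjusted p from 0.057 to 0.222). In dataset 2 the DN pool joined a CCR2+ and a CCR2- gate, so that its Ccr2 level is a mixture. Of 21 chemokine and S1P receptors 3 were higher and 2 lower (median -0.45), which became 0 and 0 without the Ly6C+ pool of dataset 2.

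Of 15 chemokine ligand genes 0 were higher and 3 lower (median -0.50). Ccl2, the main ligand of CCR2, was at 0.726 and 0.66 CPM in DN and 7.10 and 8.85 in Ly6C+ (log2 fold change -3.52, SE 0.466, adjusted p = 0.00127). Without the Ly6C+ pool of dataset 2 its adjusted p was 0.0892 and the list had 0 lower. Of 26 adhesion receptors 2 were higher and 7 lower (median -0.40), and 2 were lower without either pool of dataset 2. Itga1, the alpha chain of a collagen-binding integrin, was at 18.9 and 9.62 CPM against 63.5 and 45.0 (-1.97, SE 0.218, adjusted p = 0.000367).

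Of the 9 Fc receptor genes 3 were higher, 3 lower and 3 did not pass, and with any 1 pool left out 1 to 2 were higher and 2 were lower. Fcgrt, the neonatal Fc receptor that recycles IgG, was at 125.9 and 95 CPM in DN and 54.1 and 48.7 in Ly6C+ (log2 fold change 1.11, SE 0.14, adjusted p = 0.000797). Fcgr3, a low-affinity receptor for IgG complexes, was at 112 and 56.8 CPM against 278 and 286 (-1.79, SE 0.229, adjusted p = 0.00184), and Fcgr1, the high-affinity receptor, at 67.3 and 23.8 against 156 and 121 (-1.77, SE 0.263, adjusted p = 0.00502). Fcgr4, another activating IgG receptor, went the other way, at 40.7 and 27.1 CPM in DN against 18.37 and 22.9 (0.69, SE 0.206, adjusted p = 0.0465), which was lost without the DN pool of dataset 1 or either Ly6C+ pool (adjusted p from 0.0546 to 0.342).

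The enzymes of cholesterol synthesis were higher in DN. Of 24 tested, 17 were higher and 0 lower, with a median log2 fold change of 1.13. Cyp51, lanosterol demethylase, was at 72.3 and 90.03 CPM in DN against 26.9 and 23.1 in Ly6C+ (log2 fold change 1.74, SE 0.214, adjusted p = 0.000937), and Srebf2, the transcription factor that drives the pathway, at 84.2 and 94.4 against 42.6 and 38.9 (1.16, SE 0.165, adjusted p = 0.00131). Both passed in each fit without a pool, but the list's 17 became 9 without the DN pool of dataset 2, 5 without the Ly6C+ pool of dataset 1 and 4 without that of dataset 2. The sterol element core CACCCCAC was found in the promoter window of 2 of 12 higher genes with a RefSeq promoter, Acat2 and Hmgcs1, against 3.30% of genes.

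Other metabolic lists had medians nearer to 0. Of 21 lipid handling genes 4 were higher and 3 lower (median -0.02), the number lower being 8 without the DN pool of dataset 1 and 1 without the Ly6C+ pool of dataset 2. Among them were Pltp, phospholipid transfer protein, at 127 and 142 CPM in DN against 56.1 and 61.6 (log2 fold change 1.21, SE 0.127, adjusted p = 0.000298), and Fasn, fatty acid synthase, at 21.6 and 29.0 against 9.55 and 7.503 (1.61, SE 0.223, adjusted p = 0.00117). Of 24 glycolysis and pentose phosphate genes 3 were higher and 8 lower (median -0.26), and 2 were lower without the Ly6C+ pool of dataset 2. Slc2a3, the glucose transporter GLUT3, was at 9.33 and 9.38 CPM against 2.45 and 1.15 (2.47, SE 0.339, adjusted p = 0.00113), while Pkm, pyruvate kinase, was at 382 and 227 against 694 and 452 (-0.91, SE 0.152, adjusted p = 0.00322). Of 34 oxidative phosphorylation subunits 0 were higher and 2 lower (median -0.18), and 0 were lower without either pool of dataset 2.

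Part of the cell cycle list was higher in DN. Of 39 tested, 15 were higher and 1 was lower (median 1.12), and the number higher was 2 without the Ly6C+ pool of dataset 2 and 6 without the DN pool of dataset 2. Mcm2, Mcm3, Mcm5, Mcm6 and Mcm7, subunits of the replicative helicase, were higher, while Mki67, Top2a and Cdk1 did not pass. All 5 Mcm calls were lost without the Ly6C+ pool of dataset 2 (adjusted p from 0.109 to 0.302), those of Mcm2 and Mcm5 also without the DN pool of dataset 2 (0.157 and 0.0736) and that of Mcm2 without the Ly6C+ pool of dataset 1 (0.0861). Mki67, the proliferation marker, was at 7.26 and 5.66 CPM in DN and 10.0 and 3.65 in Ly6C+ (log2 fold change 0.03, SE 0.436, adjusted p = 0.975). Kif23, a kinesin of cell division, was at 33.5 and 38.5 CPM against 13.5 and 12.3 (1.5, SE 0.172, adjusted p = 0.000432), and Hmgb2, a chromatin protein, at 174 and 189 against 291 and 432 (-0.96, SE 0.15, adjusted p = 0.00228). The summed level of the list was 576 and 645 CPM in DN and 562 and 680 in Ly6C+.

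Costimulatory genes contained members of both directions, 6 of 23 being higher and 9 lower (median -0.44), with 3 higher and 2 lower without the Ly6C+ pool of dataset 2. Ltb, lymphotoxin beta, was at 35.4 and 47.1 CPM in DN and 11.3 and 8.85 in Ly6C+ (log2 fold change 2.09, SE 0.235, adjusted p = 0.000613), Tnfsf9, the 4-1BB ligand, at 10.2 and 10.7 against 2.45 and 2.12 (2.22, SE 0.298, adjusted p = 0.00104), and Icosl, the ligand of ICOS on T cells, at 24.8 and 30.8 against 7.84 and 9.62 (1.69, SE 0.227, adjusted p = 0.00104). The receptor gene Lilr4b was lower, at 8.91 and 5.11 CPM against 30.6 and 24.1 (-2.0, SE 0.254, adjusted p = 0.000835).

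In the Ms4a and Cd300 families 2 of 17 were higher and 6 lower (median -0.42), which became 0 and 2 without the Ly6C+ pool of dataset 2. Ms4a6d was at 42.1 and 33.1 CPM in DN and 133 and 128 in Ly6C+ (log2 fold change -1.79, SE 0.147, adjusted p = 7.89e-05). Of 33 cytokines and their receptors 3 were higher and 7 lower, of 14 tetraspanins 5 were higher and 1 lower, and of 14 Bcl2 family genes 4 were higher and 2 lower. Without the Ly6C+ pool of dataset 2 these became 1 and 2, 1 and 0, and 1 and 1. Bcl2l11 (BIM, which promotes cell death) was at 17.9 and 15.1 CPM against 41.4 and 36.5 (-1.23, SE 0.193, adjusted p = 0.00228). Over all genes tested 8.05% were higher and 8.26% lower. Of 17 complement and coagulation genes 1 was higher and 2 lower. Of 12 S100 genes 1 was higher (S100a9, whose UMIs were in few cells) and 3 lower. Of 29 immediate early and dissociation stress genes 0 were higher and 2 lower. With any 1 pool left out, the numbers higher ranged from 0 to 1, 0 to 2 and 0 to 6 (the 6 without the DN pool of dataset 1), and the numbers lower from 1 to 6, 0 to 5 and 1 to 5, the fewest without the Ly6C+ pool of dataset 2.

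**Figure D3:**
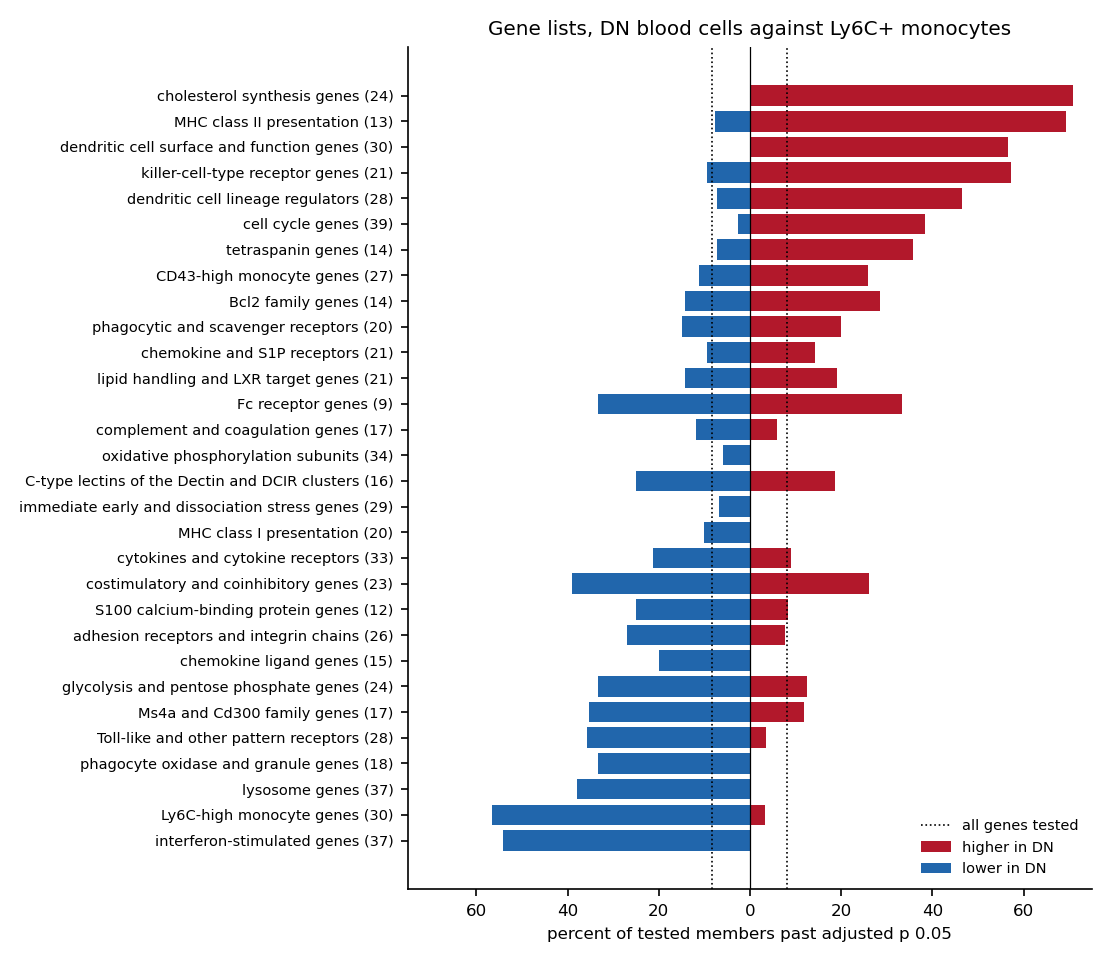
Share of the tested members of each gene list that were higher (red, to the right) or lower (blue, to the left) in DN blood cells at an adjusted p under 0.05, in percent, with the number tested in parentheses and the shares over all 11474 genes tested (8.05% and 8.26%) as dotted lines. Cholesterol synthesis, MHC class II and killer-cell-type receptor genes reach farthest to the right, and Ly6C-high monocyte and interferon-stimulated genes farthest to the left.

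Among 27 CD43-high monocyte genes 7 were higher in DN than in Ly6C+ monocytes and 3 lower, with a median of -0.04, and without the Ly6C+ pool of dataset 2 these became 3 and 0, while 10 were lower without the DN pool of dataset 1.

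Several genes that separated DN from Ly6C+ monocytes lay far below the CD43+ level. Cd300e, an activating receptor of monocytes, was at 8.71 and 16.3 CPM in DN, 0.49 and 0.192 in Ly6C+ and 305.7 and 361 in CD43+ (DN over Ly6C+ log2 fold change 5.27, SE 0.607, adjusted p = 0.00158, and 0.0626 without the Ly6C+ pool of dataset 2). Dusp16, a MAP kinase phosphatase, was at 17.3 and 17.0 CPM in DN, 3.92 and 5.58 in Ly6C+ and 302.4 and 435 in CD43+ (1.85, SE 0.231, adjusted p = 0.000726). For Isg15 and Ifit1 the DN pools lay between the others: the CD43+ pools had 14.9 and 8.86 CPM of Isg15 and 2.42 and 1.54 of Ifit1. Cd209a was at 13.3 and 7.70 CPM in CD43+ monocytes and Klrd1 at 2.42 and 5.78.

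Shares of cells with a UMI of a gene were compared after each cell had been thinned to 1000 UMIs, per dataset and without a test, since cells of a pool are not replicates. Exact Clopper-Pearson 95% intervals cover counting error only. Klrd1 was seen in 8.97% of DN cells of dataset 1 (interval 7.79 to 10.3) and 27.1% of dataset 2 (25.9 to 28.4), against 0.218% and 0.116% of Ly6C+ cells and 0.146% and 0.21% of CD43+ cells. In dataset 2 these monocytes lay in other libraries than the DN cells, so that their shares do not give the level of free RNA in the DN libraries. Without thinning the DN shares were 27.5% and 67.1%, at median depths of 4494 and 5224 UMIs, and those of CD43+ cells 0.439% and 0.63%, at 2970 and 2312 UMIs. Cd209a was seen in 32.0% and 43.1% of thinned DN cells, 2.72% and 2.66% of Ly6C+ cells and 0.439% and 0.315% of CD43+ cells.

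H2-Ab1 was seen in nearly every thinned DN cell, 92.4% and 98.4%. In Ly6C+ cells it was seen in 44.8% and 24.7%, and in CD43+ cells in 49.4% and 12.2%. C1qa, a complement gene that marks LysoDCs, was also seen in 37.4% and 4.16% of Ly6C+ cells and in 35.9% and 6.397% of DN cells. LysoDCs, which also carry much H2-Ab1 RNA, shared libraries with the blood cells in both datasets. Where DN and Ly6C+ cells lay in different libraries, the library titles name different LysoDC subsets. The part of free RNA in these shares of cells was not tested. In the other direction Fn1 was seen in 51.6% and 51.9% of Ly6C+ cells and in 10.3% and 3.26% of DN cells.

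**Figure D4:**
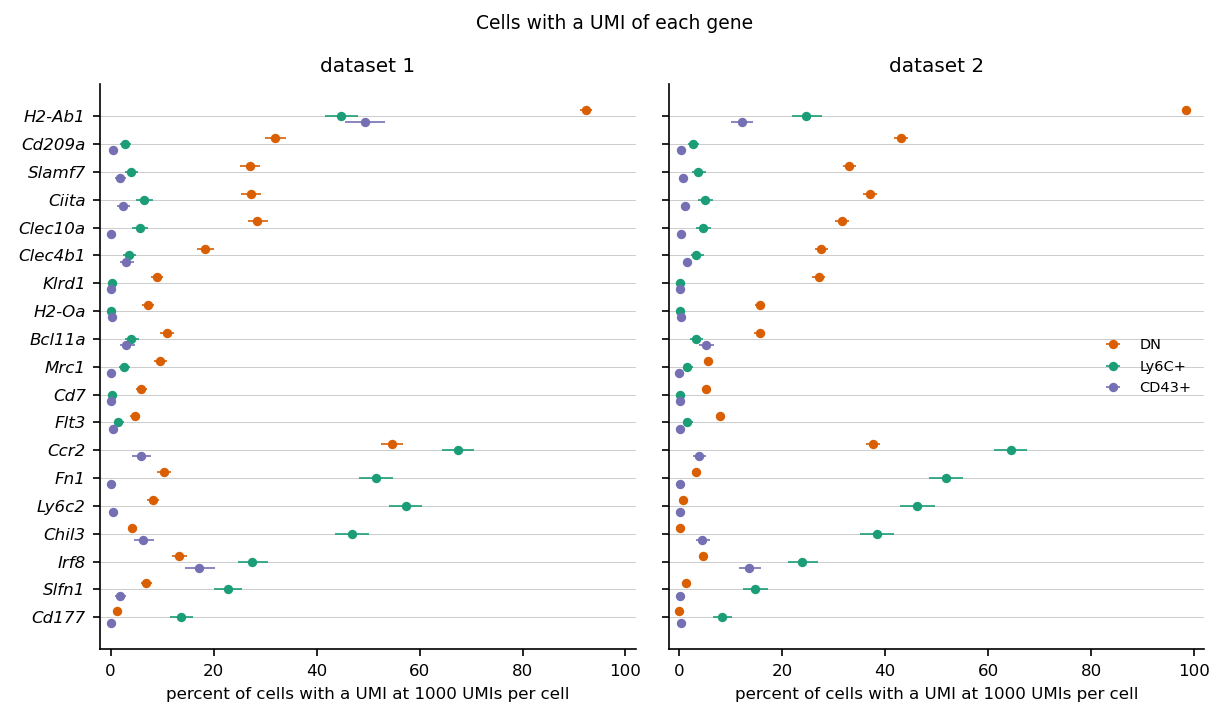
Percent of cells with at least 1 UMI of each gene after thinning every cell to 1000 UMIs, in dataset 1 (left) and dataset 2 (right), for DN blood cells (orange), Ly6C+ monocytes (green) and CD43+ monocytes (purple); bars are exact 95% intervals for counting error. H2-Ab1 is seen in 92.4% and 98.4% of DN cells and Cd209a in 32.0% and 43.1%, whereas Fn1, Ly6c2 and Chil3 are seen mostly in Ly6C+ monocytes.

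Within the DN cells, those with a UMI of the lectin gene Cd209a more often had one of Clec10a. At 1000 UMIs, Clec10a was seen in 39.5% of the 678 DN cells with a Cd209a UMI and in 23.3% of the 1440 without in dataset 1, and in 41.0% of 2142 and 24.6% of 2829 in dataset 2. For Klrd1 the same split gave 13.3% and 6.94% in dataset 1, and 27.8% and 26.6% in dataset 2. Klrd1 was seen in 3.65% of the 219 DN cells with an Fn1 UMI and 9.58% of those without in dataset 1, and in 24.1% of 162 and 27.2% of the rest in dataset 2. H2-Oa was seen in 18.9% of 190 Klrd1+ cells and 6.02% of the others in dataset 1, and in 19.1% of 1348 and 14.4% in dataset 2. The DN cells of dataset 1 shared a library, whereas those of dataset 2 came from a CCR2+ and a CCR2- gate in separate libraries. These shares were not tested.

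Markers of other cell types were compared as summed levels per pool, and their part in the differences was not tested. B cell markers summed to 286 and 210 CPM in DN and 251 and 200 in Ly6C+. Their median log2 fold change was nevertheless 3.01. Of 12 tested, 3 were higher, Cd22 and Fcmr among them, and 0 lower, against 8.05% and 8.26% of all genes tested. The number higher rose without the DN pool of dataset 1 and fell with any other single pool left out. The call of Fcmr was lost without the DN pool of dataset 2 or either Ly6C+ pool. Fcmr had 15 and 26 UMIs in the DN pools of datasets 1 and 2 and none in the Ly6C+ pools. T cell markers summed to 7.98 and 9.63 CPM in DN and 7.59 and 1.92 in Ly6C+, and none of the 3 tested passed (median 2.42). Neutrophil markers summed to 392 and 248 CPM in DN and 511 and 405 in Ly6C+, with 1 of 7 higher (S100a9) and 2 lower (0 to 2 and 1 to 4 with any 1 pool left out), and Camp, Ngp and Ly6g had no UMI in DN. Erythroid markers summed to 311 and 1.18 CPM in DN and 4.41 and 0.770 in Ly6C+, and 1 DN cell of dataset 1 held 1332 of the 1352 UMIs of the beta haemoglobin gene Hbb-bs there.

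Markers of neighbouring dendritic cell types were detected as sums in both populations, and a sum does not show which members carry it. Clec9a and Spib were low in Ly6C+, at 1.23 and 0.962 CPM and at 1.47 and 0.192 CPM. Plasmacytoid dendritic cell markers summed to 504 and 358 CPM in DN and 490 and 422 in Ly6C+, with 3 of 9 higher (Runx2, Cd209d and Spib), of which Runx2 was lost without the DN pool of dataset 1 or either Ly6C+ pool (adjusted p from 0.0903 to 0.25). Type 1 dendritic cell markers summed to 291 and 383 CPM in DN and 209 and 279 in Ly6C+, with 3 of 6 higher (Clec9a, Batf3 and Wdfy4, the last with an adjusted p of 0.0503 without the Ly6C+ pool of dataset 2), while Xcr1 and Cd8a were too low to be tested. LysoDC and tissue phagocyte markers summed to 4632 and 758 CPM in DN and 6250 and 3935 in Ly6C+, and 0 of 13 passed. Apoe, a lipid carrier in that list, was at 2783 and 422 CPM in DN and 4382 and 3652 in Ly6C+.

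Genes past the threshold went the same way in both datasets, S100a9 apart, and many differences were larger in dataset 2. In log2 of (CPM + 1), 7239 of the 11474 genes lay farther from 0 in dataset 2. For the Ly6C-high monocyte genes the median difference was -1.46 in dataset 1 and -2.97 in dataset 2, with 28 of 30 farther from 0 in dataset 2. In the DN pool of dataset 2, 25 of 30 were lower than in that of dataset 1, as were 7331 of all 11474 genes. For MHC class II genes the medians were 2.39 and 3.17, for dendritic cell surface genes 1.07 and 2.10, for killer-cell-type receptors 1.52 and 2.89 and for cholesterol synthesis genes 0.79 and 1.27. The tagging order, the gate, the library layout and the Ly6c2 level of the DN pool all differed between the datasets and cannot be told apart.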

How the data were processed

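The authors deposited raw UMI counts per gene, hashtag and cell barcode. Per the file headers they came from Cell Ranger 6.0.1, whereas the submitters' processing notes name Cell Ranger 2.0.0 and mm10. Hashtags were called here per dataset with HTODemux (Seurat 5.3.0, quantile 0.99), and barcodes with several hashtags were removed as doublets. Gene counts were summed per population and dataset over the cells that met the filters and tested with edgeR 4.0.16 (TMM scaling, filterByExpr, robust quasi-likelihood, dataset as block, 8 sums, two-sided). The block is the shared dataset. SE is approximate, |log2 change| over the root of F. The test was first tried on simulated data with known changes. Of 32285 gene IDs, 32235 (99.8%) matched a GRCm38 annotation.

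The members, gene lists and alternatives were chosen with earlier results of these data known. Genes named are the 15 largest changes each way (50 CPM or more in each dataset where higher), up to 4 members of a list by smallest adjusted p, all members of lists with under 6 tested genes, and genes of the sort gates; Zbtb46, Irf8, Nfil3, Lyz2, Chil3, Rsad2, Cybb, Apoe, C1qa, Mki67, Klra17 and names without values were chosen after their values were seen. For the dataset 2 library with the Ly6C+ monocytes, the labels name its LysoDCs both immature and mature. Some items are not reported here.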

Additional observations from a re-analysis of the deposited data

Results flagged for a closer look

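For 3 genes of the lists the DN and Ly6C+ pools differed in opposite directions in the 2 datasets, and this difference between datasets was not tested. S100a9, an alarmin abundant in neutrophils, had a log2 ratio of DN over Ly6C+ that was 7.62 larger in dataset 1 than in dataset 2 (21.8 and 0.035 CPM in DN, 0.49 and 0.192 in Ly6C+). S100a8, its partner, also differed by 7.62 (20.5 and 0.035 CPM in DN, 5.88 and 2.89 in Ly6C+). In the DN pool of dataset 1, 128 of the 198 S100a8 UMIs were in 1 cell and 152 of the 210 S100a9 UMIs in 1 cell. Treml4, a receptor of CD43-high monocytes, differed by 2.26, with 44.4 and 25.4 CPM in DN and 22.05 and 60.8 in Ly6C+.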

How the results depend on the processing

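Without the dataset as a replicate block (the pools of a dataset share cell preparation and sequencing), 566 genes were higher and 516 lower in place of 924 and 948. With any 1 of the 4 pools left out, 214 to 1148 were higher and 169 to 1180 lower, the lowest without the Ly6C+ pool of dataset 2. Fits that leave a population with 1 pool assume that it varies like the others. The other alternatives, among them RLE and upper-quartile scaling, total UMIs, no low-count filter, the 4 or the 6 blood sums alone, a stricter hashtag quantile, 2000 UMIs, 5% mitochondrial, DESeq2, and k-means hashtag clusters, all barcodes, or DN cells without an Ly6c2 UMI (these 3 chosen after seeing the data), kept both counts within 1.5 times. Upper-quartile scaling made 58.5% of the calls higher and DESeq2 41.8%. Of the 30 genes with the largest changes, 16 stayed past the threshold with the 4 compared sums alone, 17 without the Ly6C+ pool of dataset 2 and 21 to 30 under the others, and 0 turned. S100a9 turned without the Ly6C+ pool of dataset 1 (log2 fold change -2.15, adjusted p = 0.481, and 5.47 without that of dataset 2). Among the lists, dropping the block took the lower genes from 20 to 8 (interferon-stimulated), 14 to 6 (lysosome), 10 to 5 (pattern receptors), 7 to 2 (adhesion), 8 to 5 (glycolysis) and 6 to 3 (Ms4a and Cd300). With the 4 compared sums alone the lower Ly6C-high genes went from 17 to 8 (26 with no low-count filter), the lower adhesion genes from 7 to 4 and the higher cell cycle genes from 15 to 7. The 6 lower oxidase and granule genes became 3 with the 6 blood sums alone, 10 with no low-count filter and 12 with DESeq2. Depth limits genes of few UMIs, such as those with 0 UMIs in a Ly6C+ pool.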
